A study of Homo sapiens with 6 samples.

Results

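The genes described here carry a cell from G1 into S phase and copy its DNA. They were taken as 43 listed symbols, of which 41 have a row among the 16199 genes of the deposited table, and all 41 passed the filter on low counts. CDKN2C, an inhibitor of CDK4 and CDK6, and E2F2, an activating E2F factor, have no row and were not analysed here. The 6 RNA-seq samples come from H1, an established human embryonic stem cell line. Of these, 2 are unedited wild type, and CRISPR-Cas9 editing placed the S1344L change of DICER1 in the others, with 2 samples hemizygous and 2 homozygous for it. S1344L is a hotspot change of cancers in the RNase that releases microRNAs from their hairpin precursors. The labels do not say what the other DICER1 copy of the hemizygous cells is, how many clones were used, or whether replicates were grown as separate cultures. The p-values therefore cover only the scatter among these 6 libraries, and that scatter may be technical.

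D-type cyclins with CDK4 and CDK6, and then E-type cyclins with CDK2, phosphorylate the RB family of pocket proteins and free E2F factors, which switch on the genes for DNA replication. Origins are licensed in G1 when ORC, CDC6 and CDT1 load the MCM helicase, and fire in S phase when CDC45 and GINS join the helicase and the polymerases follow. Embryonic stem cells are known for a short G1 phase, and microRNAs of the miR-302 family are known to promote their G1 to S step. In bulk RNA, fewer cells in a phase and less RNA per cell cannot be told apart.

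Total counts ran from 38164848 to 52924532 per sample, and the 41 genes held 0.415% to 0.442% of them. Expression is given in CPM, the counts of a gene over the TMM-scaled total of its library, always with replicate 1 before replicate 2. DICER1 itself was at 169 and 126 CPM in wild type, 118 and 96.4 in hemizygous and 129 and 118 in homozygous samples, a level that says nothing about a point change. Its log2 fold change was -0.46 ± 0.19 (SE) in hemizygous and -0.26 ± 0.19 in homozygous samples, with edgeR unadjusted p = 0.0456 and 0.210 and adjusted p = 1.00 for both. All 12 pluripotency markers had a row and summed to 10416 to 12413 CPM. Of the 7 endoderm markers 2 had a row, at a summed 1.64 to 6.36 CPM, and SOX17, FOXA2, GATA4, GATA6 and CER1 had none. The other lists of cell type markers summed to more. Fibroblast markers, 4 of 8 with a row, summed to 629 to 861 CPM and neural ectoderm markers, 4 of 7, to 428 to 582. Mesoderm markers, 5 of 8, summed to 266 to 403 CPM and trophoblast and amnion markers, 2 of 7, to 10.8 to 23.6. Samples with the same replicate number deviated together over the 41 genes: the deviations from the genotype means correlated at 0.794 (wild type and hemizygous), 0.357 (wild type and homozygous) and 0.722 (hemizygous and homozygous), a description with no test. Over all genes homozygous 1 stood nearer to the replicate 2 samples, with a chi-square per degree of freedom of 28.7 (wild type 2) and 28.4 (hemizygous 2), than to wild type 1 (58.3) and hemizygous 1 (55.7).

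Since DICER1 makes microRNAs, the 3′ UTRs of the genes were read for seed matches, the letters that pair with bases 2 to 8 of a microRNA. The microRNAs below, from RefSeq on GRCh38.p14, stand for families known in stem cells or for cell cycle targets, and their seeds are in capitals.
hsa-miR-302a-3p, chr4:112648186-112648208, minus strand: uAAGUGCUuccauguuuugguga
hsa-miR-17-5p, chr13:91350618-91350640, plus strand: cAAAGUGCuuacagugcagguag
hsa-miR-92a-3p, chr13:91351361-91351382, plus strand: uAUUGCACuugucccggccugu
hsa-miR-16-5p, chr3:160404754-160404775, plus strand: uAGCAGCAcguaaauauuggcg
hsa-let-7a-5p, chr9:94175962-94175983, plus strand: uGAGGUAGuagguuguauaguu
The miR-302 and miR-17 seeds differ by a shift of 1 base, so their matches, AGCACTT and GCACTTT, overlap and a single site can count for both.

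A miR-302 match stood in the longest 3′ UTR of 16 of 41 genes (39.0%), beside 24.97% of the 13194 genes with an annotated 3′ UTR. The other shares were 14 of 41 (34.1%) beside 25.2% for miR-17, 12 of 41 (29.3%) beside 25.2% for miR-16, 4 of 41 (9.76%) beside 13.1% for miR-92a and 2 of 41 (4.88%) beside 11.2% for let-7. The median 3′ UTR was 1201 bases long in the 41 genes and 1407.5 bases in all 13194. The windows below show matches in some of the genes, in capitals, with the position of the match on GRCh38.
CCND1, miR-302a-3p match, chr11:69652295-69652301, plus strand: ttccatttccaAGCACTTtcagtccaata
CCND2, miR-302a-3p match, chr12:4300976-4300982, plus strand: tccattcgaaaAGCACTTtgaaaaattgt
CDK6, miR-302a-3p match, chr7:92612013-92612019, minus strand: tacaatttctaAGCACTTgtaagaaccca
MCM6, miR-302a-3p match, chr2:135840635-135840641, minus strand: acacaggcttcAGCACTTcctttggtgtg
RB1, miR-17-5p match, chr13:48480954-48480960, plus strand: atatcccaagtGCACTTTctaatgtttct
E2F3, miR-92a-3p match, chr6:20490702-20490708, plus strand: agtgagaaaatGTGCAATcaggtgtctct
CCNE1, miR-16-5p match, chr19:29824024-29824030, plus strand: cgtgctcccgaTGCTGCTatggaaggtgc
RRM2, let-7a-5p match, chr2:10129522-10129528, plus strand: aaactgtgtagCTACCTCacaaccagtcc
A match describes letters only and is no evidence of pairing.

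The promoters were read for the E2F motif, spelled TTTCCCGC, TTTCGCGC, TTTGCCGC or TTTGGCGC on either strand, in the 300 bases from 250 before to 50 after the start that RefSeq gives on GRCh38.p14. It was found in 18 of the 34 genes with a promoter entry (52.9%) and in 583 of all 11400 promoters (5.11%). The CCAAT box (CCAAT, both strands) was found in 20 of 34 (58.8%) beside 36.3%, and the CHR element of late cell cycle genes (TTTGAA, both strands) in 2 of 34 (5.88%) beside 9.58%. Windows of the genes whose values are given most fully follow, with the motif in capitals as it reads on the gene's strand.
E2F1, chr20:33686398-33686405, gene on the minus strand: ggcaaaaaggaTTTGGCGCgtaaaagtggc
RBL1, chr20:37096016-37096023, gene on the minus strand: cagctgcagatTTTCGCGCgctttggcgca
CDC6, chr17:40287886-40287893, gene on the plus strand: ggccattcggaTTTGGCGCgagcgcggctg
MCM2, chr3:127598413-127598420, gene on the plus strand: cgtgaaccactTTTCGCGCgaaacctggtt
MCM6, chr2:135876526-135876533, gene on the minus strand: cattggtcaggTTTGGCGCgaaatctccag
POLA1, chrX:24693781-24693788, gene on the plus strand: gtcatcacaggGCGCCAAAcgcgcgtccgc
PCNA, chr20:5126674-5126681, gene on the minus strand: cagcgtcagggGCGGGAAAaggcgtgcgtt
TYMS, chr18:657614-657621, gene on the plus strand: gcgggacggccGCGGGAAAaggcgcgcgga
The E2F1, RBL1, CDC6, MCM2 and MCM6 windows hold the motif as spelled, and those of POLA1, PCNA and TYMS hold its reverse complement. The promoters of E2F1, RBL1, MCM2, MCM3 and MCM6 held more than 1 match. Those of MCM2 overlap each other and are read on opposite strands, so they are not separate sites. In MCM6 each match overlaps another on the opposite strand.

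None of the 41 genes passed a test between genotypes. At an adjusted p under 0.05, edgeR's quasi-likelihood test with Benjamini-Hochberg adjustment over all 16199 genes called 0 of 41 and 0% of all genes in hemizygous against wild type, in homozygous against wild type, in homozygous against hemizygous and in both edited genotypes against wild type. At an unadjusted p under 0.05 it again named 0 of 41 in each comparison, beside 0.87%, 2.69%, 0.765% and 1.94% of all genes, in that order. With the replicate number as a block edgeR called 0 of 41, beside 0.00617%, 0%, 0.00617% and 0% of all genes. At an unadjusted p under 0.05 the block fit named 2 of 41 in hemizygous against wild type (CDK6 and CDC25A), 1 in homozygous against wild type (TYMS), 1 in homozygous against hemizygous (CDC6) and 2 in both edited genotypes (CDK6 and TYMS). These stand beside 3.8%, 12%, 8.2% and 7.46% of all genes. DESeq2 called 0 of 41 as well, beside 0.0432%, 0.0617%, 0.0617% and 0.0617%, and with the block also 0 of 41, beside 0.142%, 0.921%, 0.148% and 0.414%; with the block DESeq2 gave an adjusted p to 13686 genes in the homozygous comparison and to 14000 for both edited genotypes, and these are the genes behind 0.921% and 0.414%. limma-voom called 0 genes in each.

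The differences between genotypes were small in size too. The median log2 fold change of the 41 genes was 0.00 in hemizygous (20 above and 21 below 0, from -0.19 to 0.48), -0.07 in homozygous (14 above and 27 below, from -0.34 to 0.23) and -0.09 in homozygous against hemizygous samples (11 above and 30 below, from -0.33 to 0.19). For both edited genotypes against wild type it was -0.03 (16 above and 25 below), and in each comparison the median of all genes was 0.00 or -0.01. With 1 sample left out the sign of these medians was not stable. The homozygous median ranged from -0.14 (without wild-type replicate 2) to 0.03 (without wild-type replicate 1), and that of homozygous against hemizygous from -0.16 (without hemizygous replicate 2) to 0.0084 (without hemizygous replicate 1). For both edited genotypes it ranged from -0.093 to 0.056. In the fit without the replicate block the SE of a single gene had a median of 0.16 in the hemizygous and in the homozygous comparison. This was larger than most of the changes, but that fit counts differences between replicate numbers as scatter. Absence of a call with 2 samples a group does not show that levels were equal, and the plot of fold changes shows each estimate with its SE.

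The 2 groups did not overlap for 4 of 41 genes in hemizygous against wild type (CCNE2, CDK6 and MCM3 higher, CDK2 lower), beside 17.3% of all genes. They did not overlap for 5 of 41 in homozygous against wild type, all lower (CCNE1, GMNN, GINS2, POLA2 and TYMS), beside 27.9%. In homozygous against hemizygous samples they did not overlap for 5 of 41, all lower (CCNE1, CCNE2, CDK6, GMNN and RFC3), beside 21.4%, and for both edited genotypes against wild type for 0 of 41, beside 8.87%. As shares of the 41 genes these are 9.76%, 12.2%, 12.2% and 0%, a description with no test. The comparisons with wild type share the wild-type samples.

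**Figure D1:**
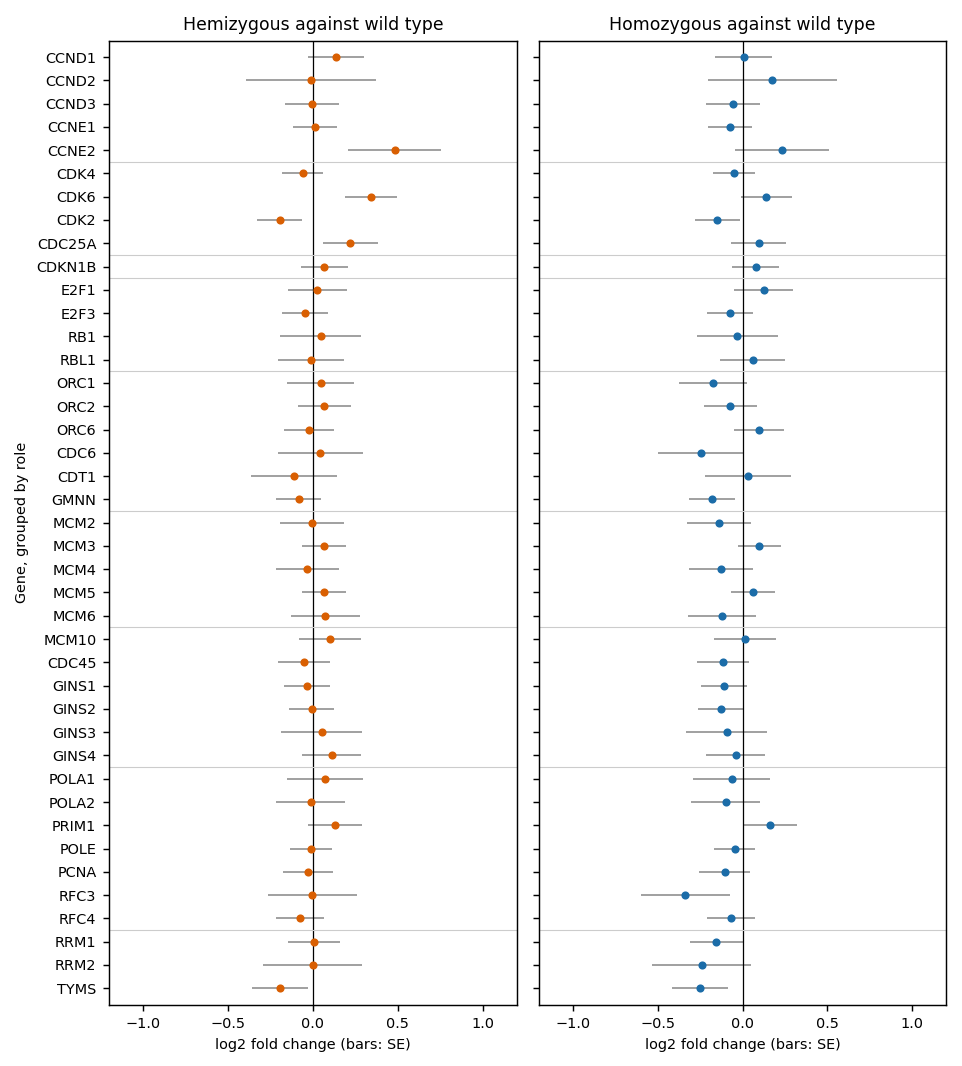
Log2 fold changes (x axis) of the 41 genes, grouped by role (y axis), in hemizygous and in homozygous against wild-type samples, with 2 samples a genotype. Points are edgeR estimates from the fit without the replicate block, and bars are 1 SE to each side. Estimates lie between -0.34 and 0.48, and no gene passed the adjusted test.

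Levels per length ran over a wide range. PCNA, the sliding clamp of replication, was highest at a mean of 153 RPKM (CPM per kilobase of annotated exon) and MCM3 next at 106 RPKM, while CCNE2 at 1.48 and POLA2 at 1.06 RPKM were lowest. Among the D cyclins CCND1 stood at 54.5 RPKM, CCND2 at 40.9 and CCND3 at 5.42. Across the 6 samples the highest level of a gene was a median 1.30 times its lowest, beside 1.44 times for all genes.

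Of the G1 cyclins, which activate CDK4, CDK6 and CDK2, CCND2 varied most and CCNE1 least. CCND1, a D-type cyclin, was at 247 and 262 CPM in wild type, 306 and 254 in hemizygous and 285 and 226 in homozygous samples, with log2 fold changes of 0.14 ± 0.17 (SE) in hemizygous and 0.01 ± 0.17 in homozygous samples. CCND2 (chr12:4273772-4305350 on GRCh38, with exon overlap to CCND2-AS1 on the other strand) was at 186 and 377 CPM in wild type, 211 and 346 in hemizygous and 265 and 369.8 in homozygous samples. The replicate 2 sample was above the replicate 1 sample in each genotype, and the genotypes overlapped fully, with log2 fold changes of -0.01 ± 0.38 and 0.18 ± 0.38. CCND3 was at 29.6 and 34.2 CPM in wild type, 29.02 and 34.5 in hemizygous and 29.1 and 32.3 in homozygous samples, again with replicate 2 above replicate 1 in each genotype and changes of -0.01 and -0.06.

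The E-type cyclins, which drive CDK2 at the G1 to S step, stood at 17.8 (CCNE1) and 1.48 RPKM (CCNE2). CCNE1 was at 47.7 and 44.1 CPM in wild type, 48.8 and 43.9 in hemizygous and 43.4 and 43.7 in homozygous samples. Both homozygous samples were below all others, by a log2 fold change of only -0.08 ± 0.13 (edgeR unadjusted p = 0.577). CCNE2 was at 6.81 and 4.14 CPM in wild type, 7.90 and 7.42 in hemizygous and 6.12 and 6.77 in homozygous samples. The wild-type 2 sample was lowest and both hemizygous samples highest, and its change of 0.48 ± 0.27 in hemizygous samples was the largest of the 41 genes there (edgeR unadjusted p = 0.125, adjusted p = 1.00). It was 0.18 without wild-type replicate 2 and 0.89 without wild-type replicate 1, and against wild type the homozygous samples gave 0.23 ± 0.27. CCNE2 lies across exons of INTS8 on the other strand, which these unstranded libraries cannot separate from it.

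Of the kinases, CDK6 was higher in both hemizygous samples than in wild type without passing the test. CDK6 (chr7:92604921-92836594 on GRCh38), which pairs with D cyclins, was at 80.8 and 63.96 CPM in wild type, 94.2 and 89.1 in hemizygous and 81.8 and 77.8 in homozygous samples. In hemizygous against wild-type samples it changed by an estimated log2 0.34 ± 0.15, with the smallest p of the 41 genes (edgeR unadjusted p = 0.062, adjusted p = 1.00), and by 0.14 ± 0.15 in homozygous ones. The hemizygous change was 0.19 without wild-type replicate 2 and 0.53 without wild-type replicate 1, and with the block its edgeR unadjusted p was 0.0116. Homozygous against hemizygous samples gave -0.20 ± 0.15, with edgeR unadjusted p = 0.232. CDK6 has the longest 3′ UTR of the 41 genes, 10219 bases, with 2 miR-302, 1 miR-17 and 2 miR-16 matches.

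CDK4, its relative, was at 125 and 117 CPM in wild type, 118 and 113 in hemizygous and 115 and 118 in homozygous samples and differed little, with changes of -0.06 and -0.05. CDK2, the partner of E cyclins, was at 56.3 and 50.01 CPM in wild type, 45.4 and 47.5 in hemizygous and 45.5 and 50.3 in homozygous samples. Both hemizygous samples were below both wild-type samples (-0.19 ± 0.13, edgeR unadjusted p = 0.189), and the homozygous change was -0.15 ± 0.13. CDC25A, the phosphatase that removes the inhibitory phosphate from CDK2, was at 101 and 83.8 CPM in wild type, 118 and 97.4 in hemizygous and 103 and 93.8 in homozygous samples. Its groups overlapped, with changes of 0.22 ± 0.16 and 0.09 ± 0.16 (hemizygous edgeR unadjusted p = 0.0447 with the block). CDKN1B (p27), an inhibitor of CDK2, was at 60.8 and 57.3 CPM in wild type, 57.9 and 65.8 in hemizygous and 58.6 and 65.9 in homozygous samples, with changes of 0.07 and 0.08.

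The E2F factors and pocket proteins ranked by replicate number in each genotype, and none passed a test between genotypes. E2F1, an activating E2F, was at 39.5 and 49.2 CPM in wild type, 40.9 and 49.4 in hemizygous and 44.9 and 51.8 in homozygous samples, higher in replicate 2 of each genotype. E2F3, another activator, was at 74.5 and 66.8 CPM in wild type, 71.5 and 65.2 in hemizygous and 69.6 and 64.5 in homozygous samples. RB1, the pocket protein that holds these factors, was at 38.5 and 29.3 CPM in wild type, 41.1 and 28.9 in hemizygous and 37.7 and 28.7 in homozygous samples. The 3 replicate 1 samples had 37.7 to 41.1 CPM of RB1 and the 3 replicate 2 samples 28.7 to 29.3. RBL1 (p107), its relative, was at 16.8 and 13.9 CPM in wild type, 17.1 and 13.4 in hemizygous and 17.03 and 14.97 in homozygous samples. The log2 fold changes, hemizygous before homozygous, were 0.03 and 0.12 for E2F1, -0.05 and -0.07 for E2F3, 0.04 and -0.03 for RB1 and -0.01 and 0.06 for RBL1.

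**Figure D2:**
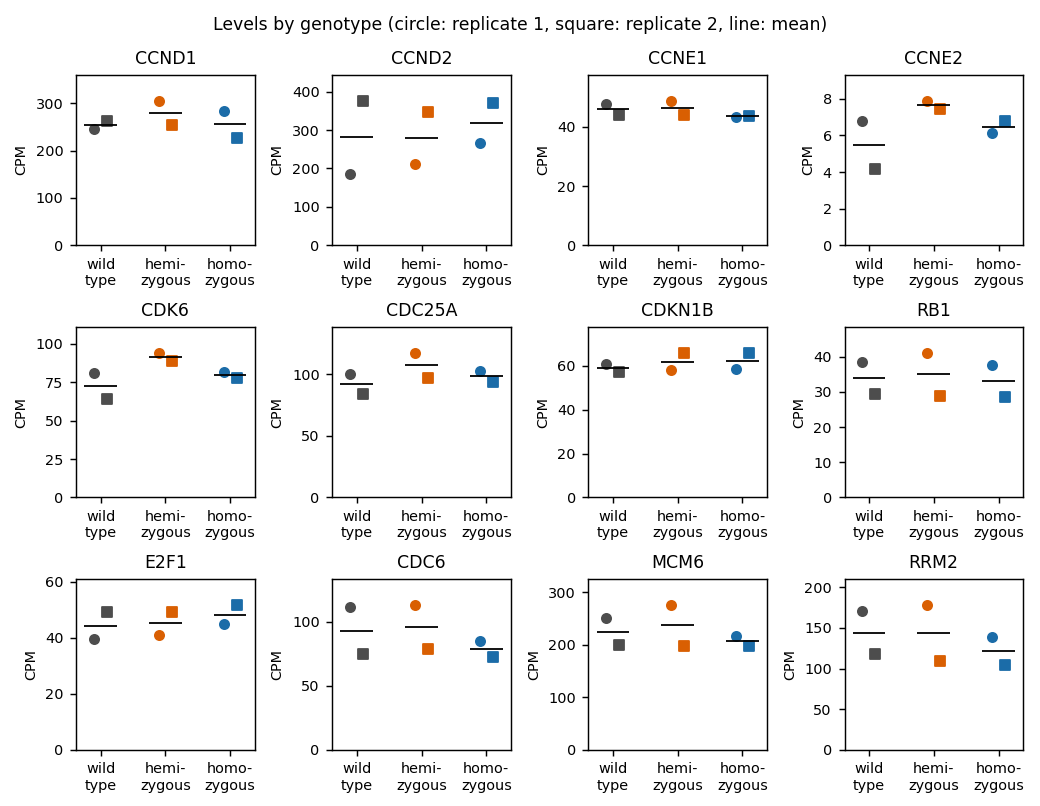
CPM (y axes, from 0) of 12 of the genes in wild-type, hemizygous and homozygous samples; circles are replicate 1, squares replicate 2 and lines the mean of the 2. CDK6 and CCNE2 are highest in both hemizygous samples, while CCND2 and E2F1 are lower, and RB1, CDC6, MCM6 and RRM2 higher, in replicate 1 of each genotype.

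Among the licensing genes CDC6 and CDT1 went opposite ways between replicates in wild-type and hemizygous samples. ORC1, the largest subunit of the origin recognition complex, was at 76.7 and 65.7 CPM in wild type, 83.1 and 63.9 in hemizygous and 71.4 and 54.7 in homozygous samples. CDC6, the ATPase that joins ORC to load MCM, was at 111 and 74.6 CPM in wild type, 113 and 78.7 in hemizygous and 84.9 and 72.03 in homozygous samples. Its homozygous against hemizygous change was -0.29 ± 0.25 (edgeR unadjusted p = 0.290, and 0.0440 with the block), and that of ORC1 was -0.22 ± 0.20 (edgeR unadjusted p = 0.306). Both genes overlapped between these groups.

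CDT1, which brings MCM to origins, was at 95.4 and 139 CPM in wild type, 86.3 and 131 in hemizygous and 127 and 113 in homozygous samples. It was lower in replicate 1 of wild type and hemizygous cells and higher in replicate 1 of homozygous cells. GMNN (geminin), the inhibitor of CDT1, was at 74.9 and 64.2 CPM in wild type, 67.4 and 63.8 in hemizygous and 62.6 and 60.1 in homozygous samples. Both homozygous samples were lowest, at a change of -0.18 ± 0.13 against wild type (edgeR unadjusted p = 0.223). ORC2 and ORC6, further ORC subunits, ranged from 78.4 to 99.7 and from 64.4 to 80.3 CPM over the 6 samples, with changes between -0.07 and 0.10 against wild type.

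The 5 listed MCM genes, without MCM7, encode subunits of the ring-shaped helicase loaded at origins. They summed to 1395 and 1307 CPM in wild type, 1508 and 1258 in hemizygous and 1422 and 1228 in homozygous samples. MCM2 was at 165 and 151 CPM in wild type, 179 and 135 in hemizygous and 159 and 127 in homozygous samples. MCM3 was at 363 and 380.5 CPM in wild type, 391 and 386 in hemizygous and 422 and 374 in homozygous samples. Both hemizygous samples were above both wild-type samples for MCM3, by a change of only 0.07 ± 0.13. MCM4 was at 368 and 332 CPM in wild type, 389 and 295 in hemizygous and 355 and 285 in homozygous samples. MCM5 was at 248 and 245 CPM in wild type, 272 and 244 in hemizygous and 268 and 245 in homozygous samples, the narrowest range of the 5 genes. MCM6 was at 251 and 199 CPM in wild type, 276 and 198 in hemizygous and 217 and 197 in homozygous samples. MCM2, MCM4 and MCM6 were each higher in replicate 1 of each genotype, and so was MCM5, by a smaller margin. Changes against wild type lay between -0.14 and 0.10 for the 5 genes in both edited genotypes.

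The helicase activators lay close together between genotypes. CDC45, which joins MCM and GINS in the moving helicase, was at 28.7 and 24.1 CPM in wild type, 25.7 and 25.2 in hemizygous and 22.5 and 26.2 in homozygous samples, with changes of -0.05 and -0.11. MCM10, needed for origin firing, was at 56.2 and 44.5 CPM in wild type, 59.3 and 48.9 in hemizygous and 55.4 and 46.4 in homozygous samples, and GINS4, a GINS subunit, at 57.8 and 47.97 CPM in wild type, 63.9 and 50.3 in hemizygous and 54.7 and 48.2 in homozygous samples. Both were higher in replicate 1 of each genotype. GINS1 ranged from 91.4 to 107.5 CPM, GINS2 from 43.7 to 51.6 and GINS3 from 7.90 to 11.4, and the changes of the 6 activators lay between -0.13 and 0.11 against wild type.

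Of the polymerases and clamp genes RFC3 had the lowest homozygous estimate of all 41. RFC3, a clamp loader subunit, was at 68.9 and 42.2 CPM in wild type, 64.4 and 46.6 in hemizygous and 41.6 and 46.5 in homozygous samples. Wild type 1 and hemizygous 1 stood above the other 4 samples, and the changes were -0.34 ± 0.26 in homozygous against wild type (edgeR unadjusted p = 0.245) and -0.33 ± 0.26 against hemizygous samples (edgeR unadjusted p = 0.250, groups apart). The first was -0.63 without wild-type replicate 2 and 0.07 without wild-type replicate 1, and the other was -0.55 without hemizygous replicate 2 and -0.08 without hemizygous replicate 1. PCNA was at 255 and 210.1 CPM in wild type, 234 and 222 in hemizygous and 203 and 230.1 in homozygous samples, with changes of -0.03 and -0.10. POLA1, the catalytic subunit of polymerase alpha, was at 70.3 and 56.5 CPM in wild type, 78.5 and 54.9 in hemizygous and 68.1 and 53.1 in homozygous samples. POLA2, its partner subunit, ranged from 5.62 to 6.64 CPM, PRIM1, the primase, ranged from 23.0 to 29.4, POLE, the leading strand polymerase, from 140.6 to 155, and RFC4, another clamp loader subunit, from 59.6 to 70.5 CPM.

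The 3 nucleotide synthesis genes were all on the lower side in homozygous samples without passing the test. TYMS (chr18:657604-673578), thymidylate synthase, was at 82.8 and 65.8 CPM in wild type, 70.2 and 59.8 in hemizygous and 65.7 and 59.2 in homozygous samples. Its homozygous change of -0.25 ± 0.17 had the smallest p of the 41 genes in that comparison (edgeR unadjusted p = 0.180, adjusted p = 1.00), and the hemizygous change was -0.19 ± 0.17. With the block the homozygous p was 0.0356 in edgeR, unadjusted, and the change ranged from -0.39 without wild-type replicate 2 to -0.07 without wild-type replicate 1. TYMS shares exon sequence on the other strand with ENOSF1 and TYMSOS. RRM2 (chr2:10120698-10131419), the regulated subunit of ribonucleotide reductase, was at 171 and 117 CPM in wild type, 178 and 109.7 in hemizygous and 139 and 105 in homozygous samples. Its genotype changes of 0.00 ± 0.29 and -0.24 ± 0.29 were within the gap between replicates. RRM1, the large subunit, ranged from 113 to 147 CPM.

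**Figure D3:**
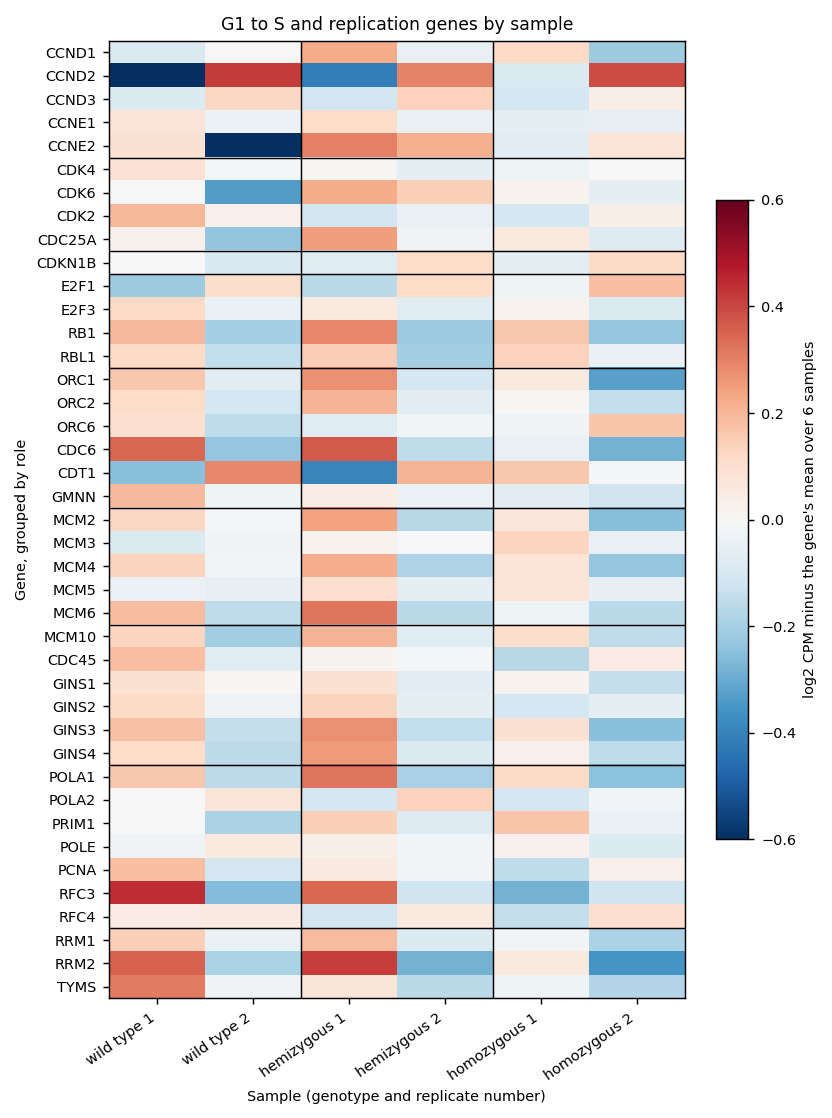
Log2 CPM of the 41 genes (y axis, grouped by role) in the 6 samples (x axis), minus each gene's mean over the 6; red is above and blue below that mean, and the colour stops at 0.6 to each side. Replicate 1 of wild type and hemizygous cells is red for most replication genes such as RRM2, CDC6 and MCM6 and blue for CCND2.

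The replicate number went with differences that passed the test in 12 of the 41 genes, most of them higher in replicate 1. The labels do not say what the number marks. In a fit with genotype and replicate number, edgeR called these 12 of 41 (29.3%) at adjusted p under 0.05, beside 20.5% of all genes. Higher in replicate 1 were 10 (RB1, ORC1, CDC6, MCM2, MCM4, MCM6, MCM10, GINS4, POLA1 and RRM2), beside 12% of all genes, and lower were 2 (CCND2 and E2F1), beside 8.5%. The median change of the 41 genes was 0.16, with 33 above and 8 below 0, while that of all genes was 0.00. DESeq2 called 10 of the 12, without E2F1 and GINS4, beside 21.3% of the 14942 genes with an adjusted p, and limma-voom called the same 12.

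The largest difference was that of CCND2, a log2 fold change of -0.74 ± 0.11 (SE) in replicate 1 (edgeR adjusted p = 0.0122), with -1.02, -0.71 and -0.48 within wild type, hemizygous and homozygous cells. E2F1 was lower too, at -0.27 ± 0.07 (edgeR adjusted p = 0.0459). RRM2 was higher by the largest margin, 0.55 ± 0.08 (edgeR adjusted p = 0.0126), with 0.54, 0.70 and 0.41 in the 3 genotypes. CDC6 was higher by 0.45 ± 0.09 (edgeR adjusted p = 0.0207), RB1 by 0.43 ± 0.08 (edgeR adjusted p = 0.0165) and POLA1 by 0.40 ± 0.08 (edgeR adjusted p = 0.0197). The other 6 were higher by 0.27 (GINS4) to 0.33 (ORC1). By share called, the listed MCM genes, without MCM7, are the fullest group, with 3 of 5 called higher. All 5 of their estimates were above 0, as were those of all 6 helicase activation and all 3 nucleotide synthesis genes. The lowest of the 5 MCM estimates was 0.04. MCM3 was at -0.07, 0.02 and 0.18 within wild type, hemizygous and homozygous cells. MCM7, a further helicase subunit kept with the other pathway genes, was at -0.05, -0.01 and 0.10 and was not called.

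The direction held in all 3 genotypes for 22 genes (53.7%) that were higher in replicate 1, beside 29.8% of all genes, and for 5 (12.2%) that were lower (CCND2, CCND3, E2F1, POLA2 and RFC4), beside 28.3%. The median difference was 0.19, 0.16 and 0.13 within wild-type, hemizygous and homozygous cells. RFC3 was at 0.71 and 0.47 in wild type and hemizygous cells but -0.16 in homozygous cells, and CDT1 at -0.54 and -0.60 but 0.17. The counts moved with the sample left out, in the 41 genes and in all genes alike. Without hemizygous replicate 1 or 2 edgeR called 0 of 41 (beside 0.00617% and 0.0185% of all genes). Without wild-type replicate 1 or 2 it called 1 higher and 1 lower (beside 7.04% and 6.65% either way), and without homozygous replicate 1 or 2 it called 17 higher and 4 lower (beside 38.7% and 38.6%). The upper-quartile scaling, under which the median of all genes was -0.08, called 4 higher (RB1, CDC6, POLA1 and RRM2), beside 7.99%, and 3 lower (CCND2, CCND3 and E2F1), beside 13.3%.

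**Figure D4:**
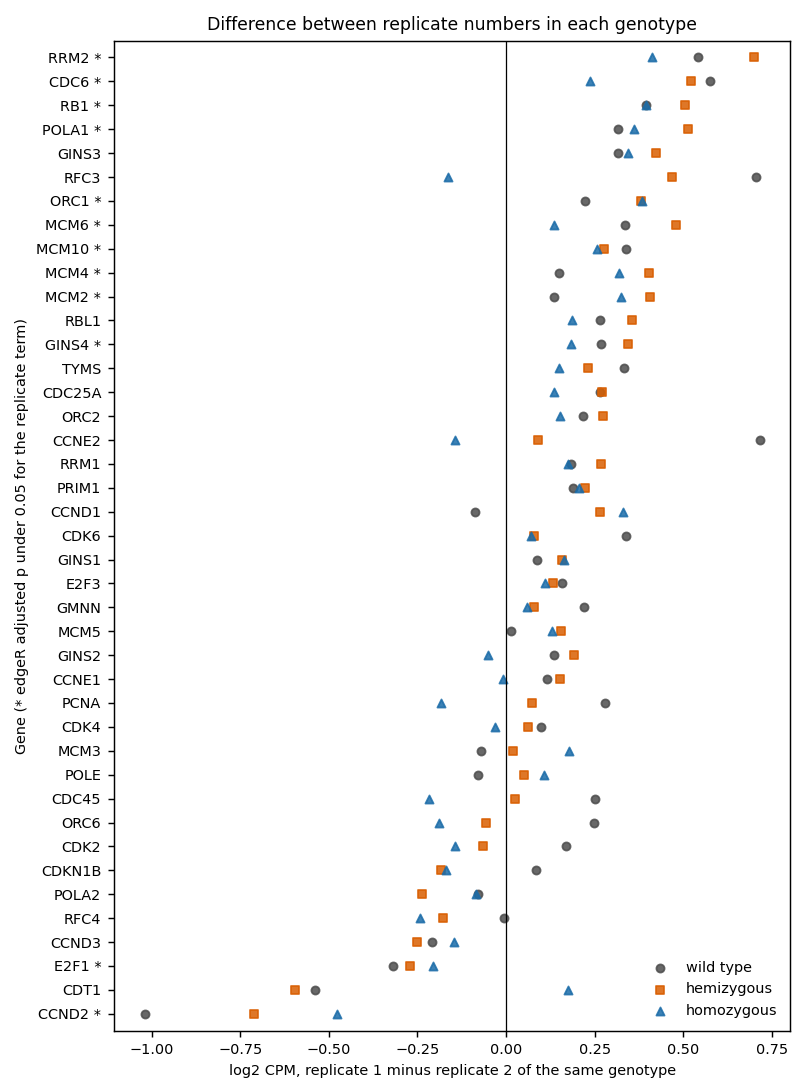
Difference of log2 CPM between replicate 1 and replicate 2 (x axis) of each of the 41 genes (y axis) in wild-type (circles), hemizygous (squares) and homozygous cells (triangles); asterisks mark the 12 genes with edgeR adjusted p under 0.05. RRM2, at 0.41 to 0.70, and CCND2, at -1.02 to -0.48, lie on 1 side of 0 in all 3 genotypes, while the highest single points are wild-type CCNE2 (0.72) and RFC3 (0.71).

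Transcript base composition moved with the replicate number across all genes. Over 15925 genes with an annotated transcript the replicate change correlated at Spearman -0.39 with GC content, 0.30 with exon length and 0.24 with mean expression. These are descriptions across genes of the same libraries, which are not independent, and carry no test. With genes split into 4 equal classes of rising GC, the median change was 0.15, 0.08, -0.04 and -0.19 for all genes, and 0.21 (8 genes), 0.21 (15), 0.09 (13) and -0.20 (5) for the 41. E2F1 has a GC content of 62.5%, RB1 37.3%, MCM2 58.1% and CCND2 45.5%. The part of base composition in the replicate differences was not tested.

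**Figure D5:**
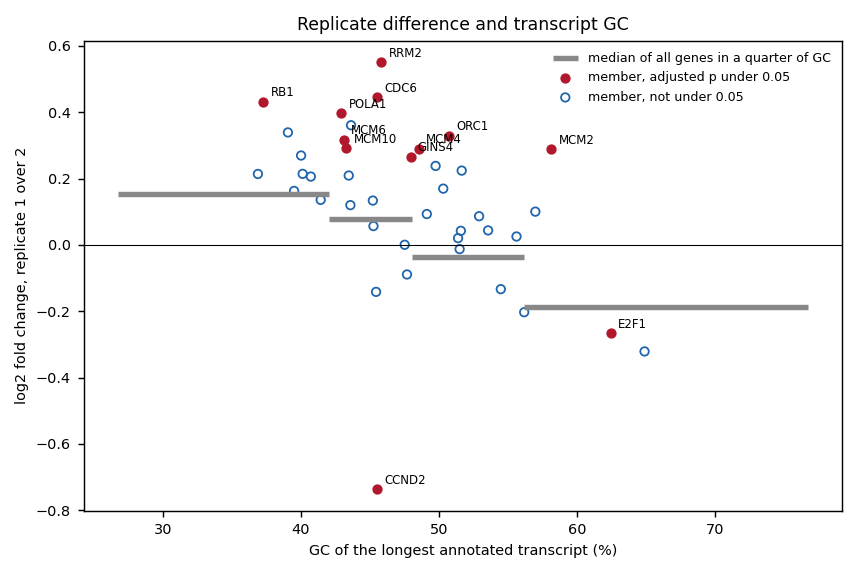
Log2 fold change of replicate 1 over replicate 2 (y axis) against the GC percent of the longest annotated transcript (x axis) for the 41 genes; filled points have edgeR adjusted p under 0.05 and grey bars are the medians of all genes in each of 4 equal classes of GC. The bars step down from 0.15 to -0.19; MCM2 and RRM2 lie above the bar of their class and CCND2 below.

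Levels of some markers of other cell types went with the replicate number as well. Endoderm markers summed to 6.19, 6.36 and 2.84 CPM in replicate 1 of wild type, hemizygous and homozygous cells, and to 1.64, 2.09 and 2.31 in replicate 2, with 2 of 2 measured genes called higher by edgeR. Trophoblast and amnion markers, 2 of 7 measured, summed to 15.3, 14.2 and 10.8 CPM in replicate 1 and 23.6, 20.1 and 15.9 in replicate 2, with 1 called lower. Fibroblast markers, 4 of 8 measured, summed to 629 to 861 CPM in replicate 1 and 676 to 789 in replicate 2, with 1 called higher. Those measured were COL1A1, COL1A2, THY1 and PDGFRB, while COL3A1, LUM, DCN and TWIST1 had no row. Neural ectoderm markers, 4 of 7 measured, summed to 439 to 582 CPM in replicate 1 and 428 to 488 in replicate 2, and mesoderm markers, 5 of 8 measured, to 266 to 387 and 284 to 403, with 0 called by edgeR in either list and 0 and 3 at an unadjusted p under 0.05. Pluripotency markers summed to 10893 to 12413 CPM in replicate 1 and 10416 to 11234 in replicate 2, with 1 of 12 called higher. These counts stand beside 20.5% of all genes called by replicate number and 38.6% with an edgeR unadjusted p under 0.05. Between genotypes edgeR called 0 markers of each list at adjusted p under 0.05. In hemizygous against wild type, 2 of 4 neural ectoderm and 2 of 5 mesoderm markers had an unadjusted p under 0.05, beside 0.87% of all genes. The lowest neural ectoderm p was 0.00013 (edgeR unadjusted). Estimates in that list ran from -0.03 to 1.54, with 3 above and 1 below 0. In homozygous against wild type these counts were 2 of 4 and 1 of 5, and 1 of 4 fibroblast markers, beside 2.69% of all genes. All other marker lists had 0 in these comparisons. The neural ectoderm list was split in homozygous samples: 2 markers were higher and 2 lower than in wild type, without overlap of the groups. The part of other cells in the replicate and genotype differences was not tested.

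Other genes of the pathway did not pass between genotypes either. Of 70 listed, 66 had a row (CDKN1C, CDKN2A, CDKN2B and ASF1B had none). In edgeR 0 of 66 passed in hemizygous and 0 of 66 in homozygous against wild type, beside 0% of all genes in both. At an edgeR unadjusted p under 0.05 there were 0 and 1 of the 66 (0% and 1.52%), beside 0.87% and 2.69% of all genes. The medians of the 66 were -0.02 and -0.06. The lowest estimates were CDKN1A (p21, a CDK inhibitor) at -0.99 ± 0.45 and E2F8, a repressive E2F, at -0.53 ± 0.17 in homozygous samples, and RNASEH2A, a subunit of RNase H2, at -0.46 ± 0.39 and CDKN1A at -0.38 ± 0.45 in hemizygous samples. The highest were RNASEH2A at 0.53 ± 0.38 and TICRR, an origin firing factor, at 0.24 ± 0.15 in homozygous samples, and MCM9 at 0.18 ± 0.17 and FBXW7, which targets cyclin E for destruction, at 0.16 ± 0.17 in hemizygous samples. Between the hemizygous replicates RNASEH2A differed by -1.01 in log2 CPM (replicate 1 minus replicate 2), beside -0.03 in wild type and 0.04 in homozygous samples.

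CDKN1A was at 112 and 44.6 CPM in wild type, 75.7 and 45.04 in hemizygous and 32.8 and 46.2 in homozygous samples, so wild type 1 and hemizygous 1 stood above the other 4 samples. E2F8, at an edgeR unadjusted p of 0.017 in homozygous samples, was at 20.3 and 17.1 CPM in wild type, 17.3 and 15.1 in hemizygous and 12.3 and 13.5 in homozygous samples. Its homozygous samples were the lowest of the 6.

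By replicate number, edgeR called 12 of the 66 (18.2%), beside 20.5% of all genes: RFC1, SKP2, CCNA2, MYC, TOPBP1, TFDP1, CLSPN, DNA2, POLD3, UHRF1 and E2F7 were higher in replicate 1 and CHTF18 lower. Their median was 0.11, with 50 of 66 above 0. CCNA2, the cyclin of S phase, was at 184 and 151 CPM in wild type, 179 and 147 in hemizygous and 169 and 133 in homozygous samples and was higher in replicate 1 by 0.31 ± 0.07 (edgeR adjusted p = 0.0273). E2F7, a repressive E2F, was higher by 0.47 ± 0.09 (edgeR adjusted p = 0.0179), and CHTF18, a clamp loader subunit, was at -0.49 ± 0.12 (edgeR adjusted p = 0.0307). Of 20 mitosis genes 19 had a row, and edgeR called 1 higher and 1 lower in replicate 1, with a median of -0.06.

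Genes with and without a sequence feature are given side by side as a description with no test. In homozygous against wild-type samples the median log2 fold change was 0.02 for the 16 genes with a miR-302 match and -0.09 for the 25 without, with 10 of 16 and 4 of 25 above 0, and 0.01 and 0.00 in hemizygous samples. For miR-17 it was 0.02 (14 genes) and -0.09 (27) in homozygous samples. Many of these genes are the same, since the matches overlap. In homozygous against hemizygous samples it was -0.22 for the 4 genes with a miR-92a match and -0.08 for the other 37. With and without a miR-302 match it was -0.09 and -0.08 in that comparison. Against wild type the miR-92a medians were 0.06 and -0.004 in hemizygous and -0.10 and -0.06 in homozygous samples. Those of miR-17 were -0.004 and 0.007 in hemizygous samples. For miR-16 (12 and 29 genes) they were 0.005 and -0.0005 in hemizygous and -0.05 and -0.09 in homozygous samples. Those of let-7 (2 and 39 genes) were 0.11 and -0.004, and -0.07 and -0.07. In the replicate comparison the median was 0.18 for the 18 genes with an E2F motif and 0.14 for the 16 with a promoter but no motif, and 0.39 for the 2 genes with a let-7 match and 0.14 for the other 39.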

How the data were processed

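RNA was measured in 6 samples of H1 cells, 2 per genotype, grouped by their titles. The kit was Illumina's TruSeq RNA Library Prep v2, which does not mark strand, on total RNA, per the labels' protocols. The authors used cutadapt and HISAT2 with hg38, per the submitters' processing notes; for the counting step and its annotation, the program is not given in the sources used here. Per gene, the authors deposited whole-number counts that were not normalized. All 16199 genes have over 0.5 CPM in at least 3 samples, so low genes are not analysed here. Reads carry no molecular identifiers, so counting error is a lower limit.

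Counts were tested with edgeR 4.0.16 in R 4.3.3: TMM scaling, filterByExpr (which removed 0 genes), the quasi-likelihood test on all 6 samples with 3 residual degrees of freedom, and Benjamini-Hochberg adjustment over all genes. The SE is that of the fitted coefficient, and for genotype changes it comes from the fit without the replicate block. DESeq2 1.42.0, limma 3.58.1 (voom), other scalings, a mean CPM of at least 5, no filter, and leaving out each sample were alternatives. The replicate test takes the replicate term of a fit with genotype and replicate number, with 2 residual degrees of freedom; for it DESeq2 and voom were chosen after seeing the data. Numbers from the titles were taken as pairing samples, since deviations from the genotype means over 15130 genes correlated at 0.766, 0.376 and 0.498. Libraries differed by a chi-square of 11.5 to 97.4 per degree of freedom, so none is a copy. The scripts were tested on simulated data.

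The members and lists were chosen with earlier results of these data known. Values in every sample are given for a fixed set of members, for members that pass and for the 4 with the smallest p in each comparison; of the other pathway genes, those that pass are named, and otherwise the 2 highest and 2 lowest estimates. Exon length, GC and 3′ UTRs came from GENCODE 29, in which 15925 genes were matched; promoters and microRNAs came from RefSeq, and they were read, and the figures drawn, with pandas 2.3.3 and matplotlib 3.10.9 under Python 3.11.15. Exons of 17 of the 41 genes overlap a gene on the other strand and 4 one on the same strand. The 17 are CCND1, CCND2, CCND3, CCNE2, CDK2, CDK4, CDK6, RBL1, ORC2, MCM2, GINS2, GINS3, GINS4, PRIM1, RFC4, RRM1 and TYMS. The 4 are CCND2, POLA2, PRIM1 and RRM2. For the 17 the unstranded libraries cannot separate the 2 strands. The windows around some seed matches are not reported here.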

Additional observations from a re-analysis of the deposited data

How the results depend on the processing

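In the 4 genotype comparisons edgeR, DESeq2 and voom called 0 of the 41 genes under each alternative run, including leaving out each sample in turn. The median of the 41 in hemizygous against wild type was 0.00 and ranged from -0.063 (without hemizygous replicate 1) to 0.14 (without hemizygous replicate 2) when 1 sample was left out. Same-numbered samples were paired by a replicate block: by adjusted p 0 of 41 genes passed in each genotype comparison with it, as without it, and it changed no call there; by unadjusted p it named 2, 1, 1 and 2 genes where 0 were named without it. The replicate comparison depended on more choices. Upper-quartile scaling called 4 higher and 3 lower with a median of 0.088, beside 7.99% and 13.3% of all genes. A mean CPM of at least 5 called 6 higher with a median of 0.12, and the share of all genes for that setting is not given here. DESeq2 called 10 of 41, of which 1 (CCND2) was lower, beside 21.3% of the genes with an adjusted p. The main edgeR fit called 10 higher and 2 lower with a median of 0.16, beside 12% and 8.5% of all genes. With 1 sample left out, it called 0 to 17 higher and 0 to 4 lower, with medians from 0.12 to 0.18; an unpaired sample then says nothing about the replicate term, so each of these fits rests on 2 genotypes. MCM2 and GINS4 no longer passed with DESeq2 size factors in edgeR, and E2F1 and GINS4 with DESeq2. Pairs of libraries differed by a chi-square of 11.5 to 97.4 per degree of freedom, where counting error alone gives about 1.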
